A study of Mus musculus with 6 samples.

Results

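Endothelial cells line blood vessels, and 35 genes known from this lineage are described here in 2 sorts that were made for epithelial cells. They were selected on their array signal, which was higher in sorted thyroid cells than in sorted thymic cells on these arrays, so the difference between the groups is given for them as a description, with no test. All 35 were found by name among the array probes: S1pr1, Esam and Adgrl4 stand in the array files under their older names Edg1, Esam1 and Eltd1. They are 35 of the 21365 genes tested in the whole comparison.

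The thymic group (3 arrays) held cells of the thymic medulla of C57BL/6 mice, sorted as Epcam+ UEA1+ CD45- Fluorogold-, with thymi pooled (6 each in replicates 1 and 2, and 2 in replicate 3). The thyroid group (3 arrays) held cells of C57BL/6 thyroids, sorted as Epcam+ CD45- Fluorogold-, with 20 thyroids pooled in each replicate. Epcam is an epithelial adhesion protein, UEA1 is a lectin, CD45 marks blood cells and Fluorogold stains dead cells. No treatment, transgene or mutation is named for either group, and age and sex are not given in the labels. Neither gate held an antibody to an endothelial surface protein. The thymic digestion also contained dispase, and thymus and thyroid differ in all these steps at the same time, so tissue, digestion and gate cannot be told apart here. The submitters call the replicates independent.

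Endothelial cells are held together by VE-cadherin and PECAM1, sense angiopoietins through the Tie receptors and VEGF through VEGFR2, and owe their identity to transcription factors of the ETS and SOXF families. The thyroid is an endocrine gland whose follicles are wrapped in a dense bed of fenestrated capillaries, and PLVAP forms the diaphragms of such pores. Vessels of the thymic medulla release mature T cells.

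RNA of each sample was read on a single-colour Agilent array. The signal at the 75th percentile ran from 676 to 772 in the thymic group and from 476 to 805 in the thyroid group, with 0 saturated spots. On a thymic array 79.1% to 81.6% of spots lay well above background, and on a thyroid array 65.9% to 73.1%. The number of arrays, 3 per group, limits the precision. A level is here the log2 of the processed signal minus the 75th percentile of its array, so that 0 stands for that percentile. A difference is the thymic minus the thyroid mean of such levels, and a probe counts as above background where the scanner software marked it well above background. Slide 1 carried the thymic arrays and the first thyroid replicate, and slide 2 the other thyroid arrays.

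Of the 35 genes, 32 lay above background on all 3 thymic arrays, Sele on 2, and Adgrl4 and Clec14a on none. All 35 lay above background on the 3 thyroid arrays, which was enough to pass the filter on low values. The 32 were thus above background on all 6 arrays, where 17055 of the 21365 genes tested had such a probe. In each of the 35 genes every thymic value lay below every thyroid value, with the narrowest gap at Vwf (1.58 on the log2 scale). Over all genes tested, 34.3% had groups apart in this direction. The median difference of the 35 genes was -5.91, where the median of all genes was 0.10, and it was -6.09 on slide 1 alone. The thyroid cells held 8-fold or more of the thymic signal for 31 genes (3.09% of all genes tested) and 64-fold or more for 17 (0.491% of all genes). Since the genes were chosen for this direction, these counts describe the choice. The sizes depended on the background correction. With normexp, which corrects the raw signal and adds an offset, the fold of 16 of the 35 genes was over 1.5 times smaller, by 1.63 times for Esm1 up to 20.3 times for Adgrl4. The others of the 16 were Clec14a, Tie1, Sele, She, Tmem100, Cyyr1, Emcn, Eng, Cdh5, Sox18, Nos3, Fli1, Pecam1 and Tal1. The lower bounds given for faint genes hold for the processed signal only. In bulk samples such as these, fewer endothelial cells and less RNA of a gene per cell cannot be told apart.

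**Figure D1:**
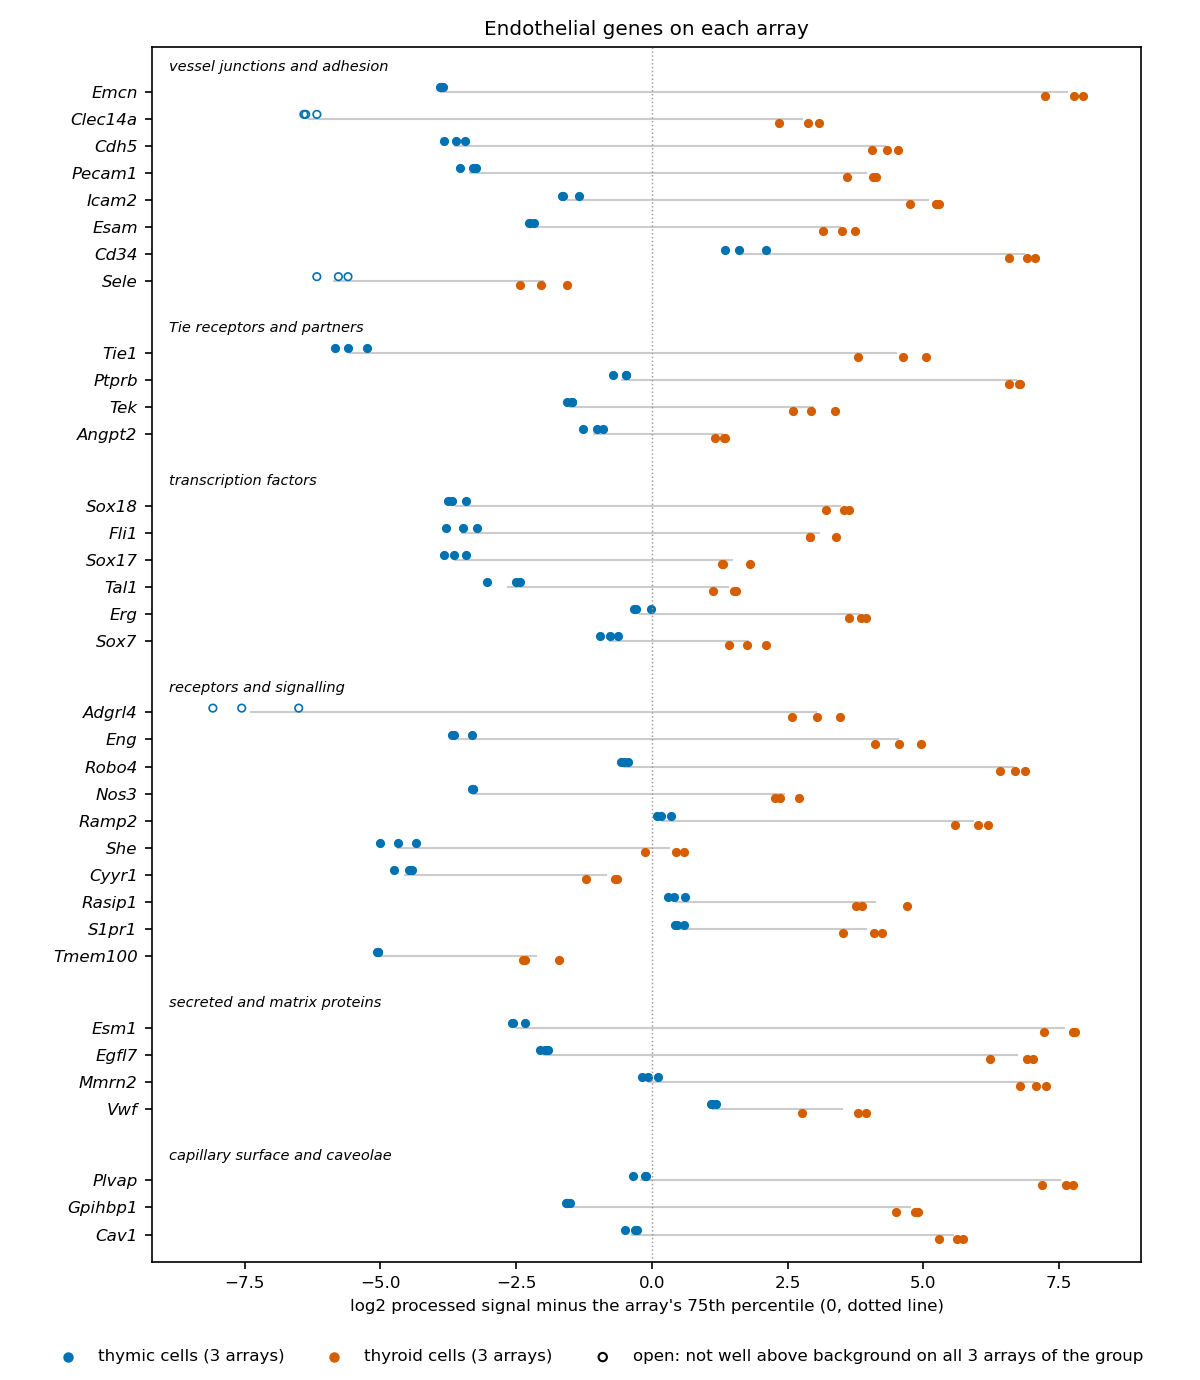
Level of the 35 endothelial genes on each array, by role, as log2 processed signal minus the array's 75th percentile. Points are single arrays (blue, thymic cells; orange, thyroid cells), grey lines join the group means, and open points mark genes not above background on all 3 arrays of a group. No gene has overlapping groups, and on this scale the differences run from -11.52 for Emcn to -2.35 for Angpt2.

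The probes of 6 of the genes are shown to fix which transcript stretch was read. They were taken from the array files, which place them on the mm8 build. The Tie1 probe lies at chr4:117969459-117969518 on the minus strand, the Pecam1 probe at chr11:106497165-106499018 on the minus strand, across an intron, and the Nos3 probe at chr5:23893883-23893942 on the plus strand. The Sox17 probe lies at chr1:4481890-4481949 on the minus strand, the Vwf probe at chr6:125651459-125651518 on the plus strand and the Esm1 probe at chr13:114338874-114338933 on the plus strand. Each is written 5′ to 3′.
Tie1: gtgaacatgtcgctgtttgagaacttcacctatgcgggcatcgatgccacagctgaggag
Pecam1: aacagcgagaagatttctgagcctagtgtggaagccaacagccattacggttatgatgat
Nos3: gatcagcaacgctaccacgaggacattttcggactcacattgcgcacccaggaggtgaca
Sox17: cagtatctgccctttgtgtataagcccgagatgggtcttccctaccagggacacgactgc
Vwf: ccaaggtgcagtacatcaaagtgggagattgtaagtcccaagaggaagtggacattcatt
Esm1: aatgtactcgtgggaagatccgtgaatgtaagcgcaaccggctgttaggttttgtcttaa

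Of the 8 genes of vessel junctions and adhesion, Emcn had the widest difference among the genes above background on all 6 arrays. Emcn encodes endomucin, a sialomucin of capillaries and veins. It stood at -3.89, -3.85 and -3.90 in thymic cells, against 7.76, 7.93 and 7.24 in thyroid cells. The SD was 0.03 over the thymic and 0.36 over the thyroid arrays, where replicate 3 lay lowest, and the means differed 2942-fold. Cdh5 encodes VE-cadherin, the adhesion protein of endothelial junctions. It was at -3.44, -3.83 and -3.60 in thymic cells, against 4.52, 4.33 and 4.04 in thyroid cells, a 242-fold difference with no overlap. Pecam1 encodes CD31, which joins neighbouring endothelial cells and also occurs on platelets and leukocytes. Its probe shown above gave -3.29, -3.53 and -3.23 in thymic cells, against 4.08, 4.13 and 3.60 in thyroid cells, or 156-fold, and thyroid replicate 3 was again the lowest thyroid array. Clec14a, a C-type lectin of endothelium, was at -6.38, -6.17 and -6.41 in thymic cells, against 3.07, 2.87 and 2.34 in thyroid cells. It was not well above background on any thymic array, and the thyroid signal was at least 483-fold higher, taking for each thymic array the higher of the lowest signal above background there and the probe's own. With normexp the difference was -6.14, or 70.7-fold.

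The other junction and adhesion genes differed less than Pecam1. Icam2, a ligand of leukocyte integrins that resting endothelium carries, was at -1.63, -1.65 and -1.35 in thymic cells, against 5.28, 5.23 and 4.75 in thyroid cells (99.01-fold). Esam, a tight junction adhesion protein of endothelium and platelets, was at -2.18, -2.26 and -2.25 in thymic cells, against 3.74, 3.50 and 3.15 in thyroid cells (51.7-fold). Cd34 encodes a sialomucin of endothelium, blood progenitors and some fibroblasts. Its levels were 1.34, 1.60 and 2.10 in thymic cells, against 7.05, 6.91 and 6.58 in thyroid cells (35.97-fold), and within the thymic group replicate 3 was the highest. Sele, which encodes E-selectin of inflamed endothelium, was at -5.60, -6.17 and -5.77 in thymic cells, against -2.04, -1.57 and -2.43 in thyroid cells (14.3-fold, and 3.00-fold with normexp). The 8 differences ran from -3.84 for Sele to -11.52 for Emcn with a median of -6.96.

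The Tie system was measured by 4 genes. Tie1, an orphan receptor that modulates TIE2 signalling, was at -5.25, -5.61 and -5.84 in thymic cells, against 5.05, 4.62 and 3.80 in thyroid cells. Its thyroid values were the most scattered of this group of genes, with replicate 1 highest and replicate 3 lowest, and the means differed 1063-fold (206-fold with normexp). The angiopoietin receptor TIE2 is encoded by Tek, which was at -1.46, -1.57 and -1.48 in thymic cells, against 3.37, 2.94 and 2.60 in thyroid cells (22.2-fold). Ptprb encodes VE-PTP, the phosphatase that restrains TIE2. It was at -0.47, -0.71 and -0.47 in thymic cells, against 6.78, 6.77 and 6.58 in thyroid cells, and its 153-fold difference stood beside SDs of 0.14 in thymic and 0.11 in thyroid cells. Angpt2, the ligand that endothelium itself makes and that can oppose TIE2 activation, was at -1.02, -1.27 and -0.91 in thymic cells, against 1.35, 1.33 and 1.17 in thyroid cells. The means differed 5.08-fold.

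Of the 6 transcription factors, 3 are SOXF genes. Sox18 was at -3.42, -3.67 and -3.75 in thymic cells, against 3.63, 3.54 and 3.20 in thyroid cells (134-fold). Sox17, known from arterial endothelium and also from endoderm, was at -3.83, -3.65 and -3.42 in thymic cells, against 1.81, 1.30 and 1.31 in thyroid cells with the probe shown above (34.4-fold). Sox7 was at -0.76, -0.96 and -0.62 in thymic cells, against 2.10, 1.75 and 1.43 in thyroid cells (5.82-fold). The gap between the groups was 6.61 for Sox18, 4.72 for Sox17 and 2.04 for Sox7. Fli1 and Erg are ETS factors that maintain endothelial gene expression. Fli1 was at -3.79, -3.48 and -3.23 in thymic cells, against 2.91, 3.39 and 2.91 in thyroid cells (95.1-fold), and it was 1 of the 2 genes that were not lowest on thyroid replicate 3. Erg was at -0.33, -0.02 and -0.30 in thymic cells, against 3.85, 3.95 and 3.62 in thyroid cells (16.3-fold). Tal1, a basic helix-loop-helix factor of blood and vessel development, was at -2.50, -3.03 and -2.43 in thymic cells, against 1.55, 1.52 and 1.12 in thyroid cells (16.5-fold). As a class the factors had a median difference of -4.58, and their widest was that of Sox18 at -7.07.

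Among 10 genes of receptors and signalling, Adgrl4 and Eng had the largest differences on the processed signal. Adgrl4, an adhesion receptor of sprouting vessels, was at -8.08, -6.50 and -7.55 in thymic cells, against 3.46, 3.04 and 2.58 in thyroid cells. It was above background on no thymic array, and the thyroid signal was at least 587-fold higher. With normexp the difference was -6.06, or 66.8-fold. Eng encodes endoglin, a coreceptor for BMP9 and related ligands that fibroblasts can also carry. It was at -3.68, -3.64 and -3.31 in thymic cells, against 4.95, 4.54 and 4.10 in thyroid cells (270.2-fold). Robo4, a receptor that stabilises vessel walls, was at -0.52, -0.57 and -0.44 in thymic cells, against 6.86, 6.69 and 6.40 in thyroid cells (143-fold). Nos3, the endothelial nitric oxide synthase, was at -3.29, -3.31 and -3.30 in thymic cells, against 2.71, 2.35 and 2.26 in thyroid cells. The thymic values were nearly equal, and the difference was 53.5-fold.

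Ramp2 makes the adrenomedullin receptor together with CALCRL. Its own probe, at chr11:101064278-101064337 (mm8), gave 0.10, 0.17 and 0.35 in thymic cells, against 6.18, 6.00 and 5.57 in thyroid cells (52.3-fold). The S1P receptor gene S1pr1, which endothelium and lymphocytes use, was at 0.42, 0.46 and 0.59 in thymic cells, against 4.09, 4.23 and 3.52 in thyroid cells (10.98-fold). Rasip1, a Rap1 and Ras effector needed to open vessel lumens, was at 0.29, 0.41 and 0.61 in thymic cells, against 4.69, 3.87 and 3.75 in thyroid cells (12.7-fold), where thyroid replicate 1 stood above the other 2. The median over its probes gave -1.62. The adaptor gene She, the small membrane protein gene Cyyr1 and Tmem100, a target of BMP9 signalling in endothelium, had faint thymic signals. She was at -4.34, -4.68 and -5.00 in thymic cells, against 0.44, 0.59 and -0.12 in thyroid cells (31.5-fold, and 10.6-fold with normexp). Cyyr1 was at -4.48, -4.76 and -4.42 in thymic cells, against -0.64, -0.68 and -1.21 in thyroid cells (13.1-fold, and 4.62-fold with normexp). Tmem100 was at -5.05, -5.05 and -5.04 in thymic cells, against -1.71, -2.33 and -2.37 in thyroid cells (7.50-fold, and 2.64-fold with normexp), below the 75th percentile in both groups.

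Secreted and matrix proteins were 4 genes. Esm1 encodes endocan, a proteoglycan of tip cells and VEGF-exposed endothelium, and the probe shown above gave -2.56, -2.34 and -2.57 in thymic cells, against 7.79, 7.74 and 7.21 in thyroid cells. That 1077-fold difference was the widest of the 4. Egfl7, a secreted factor of vessel matrix and the host gene of a microRNA, was at -1.97, -2.06 and -1.91 in thymic cells, against 7.01, 6.91 and 6.23 in thyroid cells (415-fold). Mmrn2, a matrix ligand of CLEC14A, was at 0.11, -0.18 and -0.08 in thymic cells, against 7.07, 7.26 and 6.77 in thyroid cells (135-fold). Vwf encodes von Willebrand factor, which endothelium stores and megakaryocytes also make. It was at 1.11, 1.18 and 1.09 in thymic cells, against 3.95, 3.80 and 2.76 in thyroid cells, only 5.20-fold apart, with thyroid replicate 3 more than 1 log2 unit below the other thyroid arrays. The Vwf probe shown above, a different one from that used for the gene, gave a difference of -2.41 against -2.38.

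The capillary surface and caveolae were covered by 3 genes. Plvap was at -0.13, -0.34 and -0.11 in thymic cells, against 7.75, 7.62 and 7.18 in thyroid cells (209-fold). Gpihbp1, which carries lipoprotein lipase onto the capillary wall, was at -1.59, -1.56 and -1.50 in thymic cells, against 4.85, 4.89 and 4.49 in thyroid cells (78.7-fold). Cav1, the caveolin of endothelium, adipocytes, fibroblasts and many epithelia, was at -0.50, -0.27 and -0.32 in thymic cells, against 5.73, 5.62 and 5.29 in thyroid cells (60.2-fold). Differences of these 3 lay between -5.91 and -7.71.

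Several genes were read by more than 1 probe, so their differences can be compared between stretches of transcript. The 35 genes had 53 probes, of which 50 passed the filter, and 13 genes had several. Of the 50, 49 had all thymic values below all thyroid values, where 34.3% of all genes tested did. Since the genes were chosen for this direction, the count describes the choice, and some probes passed the filter through the thyroid arrays only. The exception among the 50 was the second probe of Rasip1, which the array files place on the opposite strand from the first. It was at -1.17, -1.16 and -1.13 in thymic cells, against -1.80, -1.49 and -1.48 in thyroid cells, a difference of 0.43 in the other direction. Where several probes read a gene, their differences were not equal. The probes of Ptprb gave -7.26, -5.72, -8.08 and -5.55, and all but the first were above background on no thymic array, which leaves bounds of at least 42.3-fold, 60.8-fold and 10.04-fold. For Cdh5 the probes gave -7.92 and -9.91, for Clec14a -9.08 and -7.65, for Pecam1 -7.28 and -5.87, and for Sox17 -5.11, -7.29 and -4.21. The last value of each of these 4 genes comes from a probe above background on no thymic array, with bounds of at least 301-fold, 49.04-fold, 12.8-fold and 4.52-fold. Probes of Tek gave -4.47 and -3.02, those of Sox7 -2.54 and -3.83 and those of Erg -4.02 and -3.55. Fli1 (-6.57 and -6.47), Cav1 (-5.91 and -5.75) and Vwf (-2.38 and -2.41) had probes that differed little from each other. The 3 probes left untested belong to Vwf, Sox17 and Tmem100 and were not above background on all 3 arrays of either group. Their differences were 0.57 for Vwf, towards the thymic cells, -1.12 for Sox17 and -0.55 for Tmem100. The groups overlapped for the Vwf and Tmem100 probes. A further 4 probes are named Ramp2 in the array files but lie on chromosome 19, while RefSeq places Ramp2 on chromosome 11. They gave differences of 0.54 to 0.93, towards the thymic cells, and were left out. If they are kept, Ramp2 is represented by 1 of them and stands at 0.54.

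**Figure D2:**
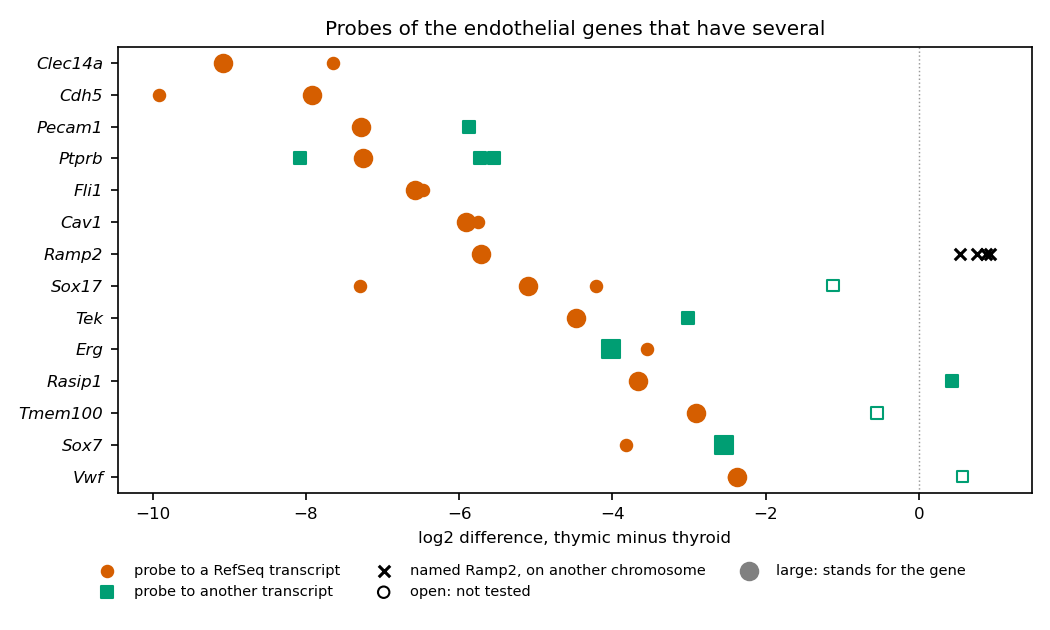
Difference (thymic minus thyroid, log2) of each probe for genes with several probes and for Ramp2. Orange circles are probes to a RefSeq transcript, green squares probes to another transcript, large symbols stand for the gene, open symbols were not tested, and crosses are the 4 probes on chromosome 19 that carry the name Ramp2. All filled circles lie left of 0. The filled green square of Rasip1 at 0.43, the open green square of Vwf at 0.57 and the crosses lie right of it.

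The promoters of 5 genes are shown because ETS, SOX and other factors of endothelium are among the 35 genes. They hold the 250 bases before the start of the gene, from RefSeq on the GRCm38.p6 build, 5′ to 3′ along the gene. Capitals mark the ETS-like words CAGGAA and GAGGAA or their reverse complements TTCCTG and TTCCTC. The Emcn window is chr3:137340828-137341077 (plus strand), that of Tie1 chr4:118489850-118490099 (minus strand) and that of Clec14a chr12:58269259-58269508 (minus strand). The Robo4 window is chr9:37401722-37401971 (plus strand) and that of Egfl7 chr2:26580833-26581082 (plus strand), a gene with 3 start sites in the table.
Emcn: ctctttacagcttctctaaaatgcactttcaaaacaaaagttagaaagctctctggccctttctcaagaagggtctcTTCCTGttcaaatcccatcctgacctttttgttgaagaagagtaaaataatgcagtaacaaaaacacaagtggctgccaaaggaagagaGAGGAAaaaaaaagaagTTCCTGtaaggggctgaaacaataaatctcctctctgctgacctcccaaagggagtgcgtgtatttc
Tie1: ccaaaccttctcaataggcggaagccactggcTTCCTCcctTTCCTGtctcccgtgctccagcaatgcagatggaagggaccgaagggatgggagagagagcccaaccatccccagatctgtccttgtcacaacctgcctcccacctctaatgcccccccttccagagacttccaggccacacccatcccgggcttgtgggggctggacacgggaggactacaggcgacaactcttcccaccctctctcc
Clec14a: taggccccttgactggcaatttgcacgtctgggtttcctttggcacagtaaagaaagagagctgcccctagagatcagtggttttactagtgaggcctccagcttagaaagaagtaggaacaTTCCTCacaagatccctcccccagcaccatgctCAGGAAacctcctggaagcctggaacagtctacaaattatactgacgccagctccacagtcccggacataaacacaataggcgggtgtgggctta
Robo4: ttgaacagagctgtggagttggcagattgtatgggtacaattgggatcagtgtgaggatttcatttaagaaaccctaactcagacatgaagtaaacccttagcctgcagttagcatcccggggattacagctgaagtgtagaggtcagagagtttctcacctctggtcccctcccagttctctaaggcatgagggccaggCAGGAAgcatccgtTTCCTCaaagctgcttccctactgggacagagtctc
Egfl7: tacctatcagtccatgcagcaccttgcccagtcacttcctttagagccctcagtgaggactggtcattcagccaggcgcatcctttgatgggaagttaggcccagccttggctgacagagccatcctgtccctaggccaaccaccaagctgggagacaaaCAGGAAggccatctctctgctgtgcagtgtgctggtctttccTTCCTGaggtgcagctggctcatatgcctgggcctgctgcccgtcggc

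Promoter windows of this kind were matched for 17 of the 35 genes. On either strand, CAGGAA occurred before 12 of these 17 genes (70.6%), where 28.3% of all 27025 genes in the table hold it. GAGGAA also occurred before 12 of 17, against 25.9% of all genes, and the words occurred together in Emcn, Tie1, Clec14a and Robo4 above. Genes with several start sites were counted if any window held the word. With the first window alone, CAGGAA was found for 11 of the 17 genes, against 25.4% of all genes. The ETS word CCGGAA was found for 1 of 17 genes (Adgrl4), against 13.6%. AACAGGAA, a composite of a forkhead and an ETS word that contains CAGGAA, occurred for Egfl7 and Emcn (11.8%), against 2.50%. Words of other families were searched on both strands as well. AACAAT, the word of SOX factors, occurred for 3 of 17 genes (17.6%, against 10.9%), AGATAA, the GATA word, for 2 (11.8%, against 11.4%) and the E-box CAGATG for 5 (29.4%, against 16.3%). These matches describe letters in a window and were not tested.

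The spread among the 3 thyroid arrays was not used to choose the genes. Of the 35 genes, 33 were lowest on thyroid replicate 3, where 37.9% of all genes were. Fli1 was lowest on replicate 1 and Sox17 on replicate 2. The highest array was replicate 1 for 26 genes and replicate 2 for 9, where 31.1% and 36.6% of all genes were highest. Set against each gene's thyroid mean, the median deviation was 0.21 on replicate 1, 0.10 on replicate 2 and -0.34 on replicate 3, where all genes had medians of -0.02, 0.03 and -0.01. Replicate 3 lay below the mean of the other 2 in 35 of 35 genes, by a median of 0.50 on the log2 scale (1.42-fold), from 0.17 to 1.11. Of all 21365 genes tested, 11226 were lower on replicate 3 in this way and 10139 higher. Markers of other cells moved along the same arrays. Fibroblast genes were lower on replicate 3 in 11 of 11 (median -1.27) and pericyte genes in 11 of 12 (median -0.73), while follicular cell genes were higher there in 11 of 12 (median 0.54) and epithelial genes in 11 of 16 (median 0.24). The part of these cells in the spread of the endothelial genes was not tested. Between the thymic arrays the 35 genes varied less, with median deviations of -0.01, -0.04 and 0.07. The median SD of a gene over its 3 arrays was 0.16 in thymic and 0.30 in thyroid cells, against 0.12 and 0.22 over all genes tested.

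**Figure D3:**
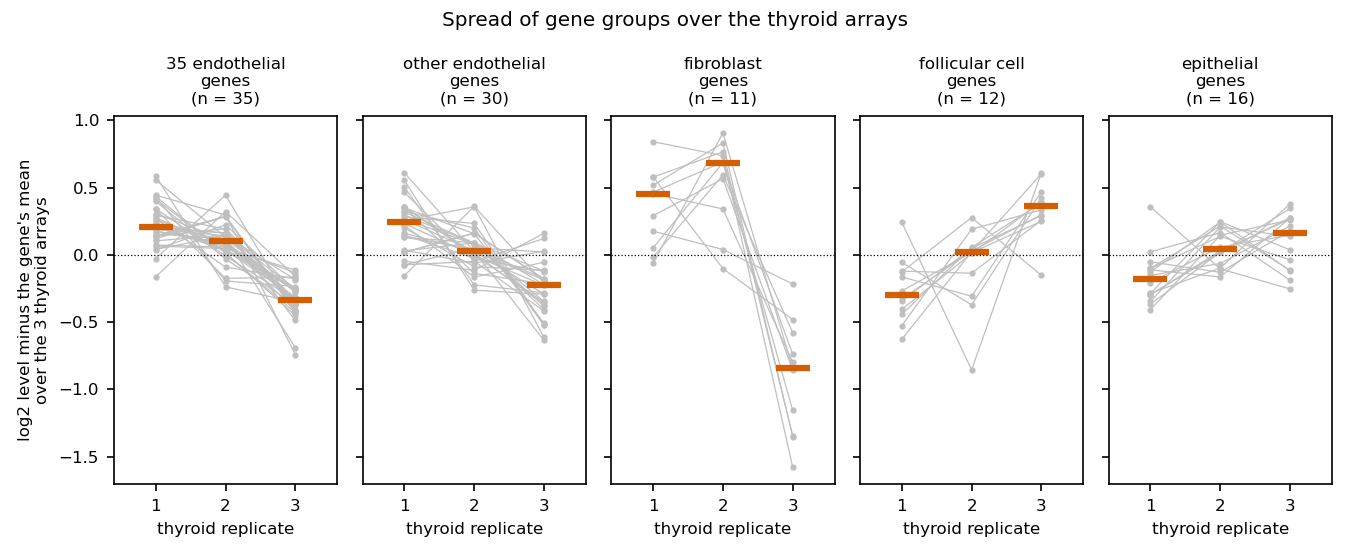
Log2 level of each gene minus its mean over the 3 thyroid arrays, by replicate, for the 35 endothelial genes and 4 other lists. Grey points joined by lines are genes and orange bars are medians. The endothelial median is -0.34 on replicate 3, where the follicular cell median is 0.36 and the fibroblast median -0.84.

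The gene lists tested from here on were chosen with earlier results of these data known. Their counts and p-values are therefore no independent test of the direction. A further 30 genes known from endothelium that were not among the 35 were tested. By limma at an adjusted p under 0.05, 0 of these were higher in thymic cells, where 39.3% of all genes were called, 28 were higher in thyroid cells, where 30.5% of all genes were called, and 2 did not pass. Their median difference was -5.00. On slide 1 alone 29 passed, and without both replicates 3 it was 28. Podxl, which encodes podocalyxin, a sialomucin of vessel lumens and kidney podocytes, was at -6.55 ± 1.01 in thymic against 3.62 ± 0.14 in thyroid cells (SD, n = 3 per group; limma adjusted p = 3.60e-06), with 1 of 3 thymic arrays above background and a difference of -7.01 with normexp, against -10.17. Adgrf5, an adhesion receptor of endothelium and lung, was at -5.52 ± 0.60 in thymic against 3.15 ± 0.31 in thyroid cells (limma adjusted p = 1.46e-06), a difference of -8.67, or -6.37 with normexp. The 2 that did not pass, named after their values were seen, were Klf2, a flow-induced factor, with a difference of -0.33 (limma adjusted p = 0.0748), and Fabp4, a fatty acid carrier of capillaries and fat cells, with -0.16 (limma adjusted p = 0.282).

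Of 10 VEGF receptors and ligands, 1 (10.0%, against 39.3% of all genes) was higher in thymic cells. In thyroid cells 9 were higher (90.0%, against 30.5%), and the median difference was -2.67. Kdr encodes VEGFR2, the main VEGF receptor of endothelium. It was at -3.68 ± 0.19 in thymic against 7.12 ± 0.19 in thyroid cells (1784-fold, limma adjusted p = 2.04e-07). With normexp Kdr was 813-fold apart, and over the other settings its difference ran from -11.34 to -7.21. The coreceptor gene Nrp1 was at -4.39 ± 0.28 in thymic against 3.60 ± 0.55 in thyroid cells (limma adjusted p = 1.51e-06), a difference of -7.98, or -6.55 with normexp. Vegfd, a ligand of VEGFR3, was the gene higher in thymic cells, at -1.50 ± 0.15 in thymic against -3.37 ± 0.27 in thyroid cells (limma adjusted p = 7.40e-05).

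Of 27 tested genes that act together with the 35 in their pathways, 9 (33.3%, against 39.3% of all genes) were called towards the thymic cells and 15 (55.6%, against 30.5%) towards the thyroid cells, with a median difference of -0.73. Acvrl1, which encodes the ALK1 receptor that works with endoglin, was at -6.04 ± 0.38 in thymic against 1.90 ± 0.33 in thyroid cells (limma adjusted p = 8.33e-07), a difference of -7.94, or -5.33 with normexp. Cavin2, a coat protein of caveolae, was at -1.83 ± 0.11 in thymic against 6.05 ± 0.33 in thyroid cells (limma adjusted p = 3.93e-07). The TIE2 ligand genes Angpt1 and Angpt4 were higher in thymic cells, unlike Angpt2. Angpt1, made by cells around vessels, was at -3.69 ± 0.21 in thymic against -6.99 ± 0.38 in thyroid cells and above background on no thyroid array, so that the thymic signal was at least 4.91-fold higher on the processed signal (limma adjusted p = 1.68e-05). Its difference of 3.30 became 0.55, or 1.47-fold, with normexp and 2.09 with quantile normalization. Angpt4 was at -4.86 ± 0.40 in thymic against -8.08 ± 0.53 in thyroid cells, at least 2.18-fold (limma adjusted p = 1.09e-04), and its difference with normexp background correction was 0.32 (limma adjusted p = 0.102).

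Genes of vessel types were compared next. Of 13 arterial and Notch genes, 1 (7.69%, against 39.3% of all genes) was higher in thymic cells. In thyroid cells 10 were higher (76.9%, against 30.5%), and the median difference was -1.14. Notch4, the Notch receptor of endothelium, was at -1.93 ± 0.11 in thymic against 3.98 ± 0.31 in thyroid cells (limma adjusted p = 7.66e-07), and the arterial semaphorin gene Sema3g was at -1.83 ± 0.21 in thymic against 4.59 ± 0.26 in thyroid cells (limma adjusted p = 6.07e-07). The kinase gene Bmx, which arterial endothelium and myeloid cells use, was the exception at -0.83 ± 0.23 in thymic against -5.62 ± 0.35 in thyroid cells (limma adjusted p = 2.99e-06), a difference of 4.79, or 2.42 with normexp. Of 8 genes of venous and inflamed endothelium, 2 were higher in thymic cells, where 39.3% of all genes were called. In thyroid cells 6 were higher, where 30.5% of all genes were called, and the median difference was -2.30. P-selectin is encoded by Selp, which platelets also carry. It was at -3.52 ± 0.19 in thymic against 0.78 ± 0.58 in thyroid cells (limma adjusted p = 1.86e-05). Lrg1, a secreted glycoprotein of veins and liver, was at -2.21 ± 0.22 in thymic against 2.20 ± 0.71 in thyroid cells (limma adjusted p = 3.85e-05). The adhesion genes Vcam1 and Icam1, known from inflamed endothelium and also from thymic stroma, were higher in thymic cells. Vcam1 was at 4.53 ± 0.08 in thymic against 1.42 ± 0.55 in thyroid cells (limma adjusted p = 6.03e-05). Icam1 was at 5.38 ± 0.05 in thymic against 4.84 ± 0.20 in thyroid cells (limma adjusted p = 0.00905), and its call ended with median centring (limma adjusted p = 0.996).

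Of 8 lymphatic genes, 3 (37.5%, against 39.3% of all genes) were called towards the thymic cells, 2 (25.0%, against 30.5%) towards the thyroid cells, and 3 did not pass (median 1.19). Both shares lie near those of all genes. Prox1, the factor that sets lymphatic identity, was at -2.75 ± 0.19 in thymic against -3.06 ± 0.40 in thyroid cells (limma adjusted p = 0.256). The sign of its difference turned with the scaling, and the median over its probes gave 1.67 (limma adjusted p = 0.00239). Podoplanin is encoded by Pdpn, which thymic epithelium and fibroblasts also carry. It was at -2.74 ± 0.38 in thymic against -5.98 ± 0.13 in thyroid cells (limma adjusted p = 1.38e-05), above background on 1 thyroid array, with a difference of 3.24, or 1.11 with normexp. Sema3d was at -2.70 ± 0.18 in thymic against -5.23 ± 0.87 in thyroid cells (limma adjusted p = 0.00136), a difference of 2.53, or 0.98 with normexp. The integrin gene Itga9 was higher in thyroid cells at -1.58 ± 0.11 in thymic against 1.39 ± 0.15 in thyroid cells (limma adjusted p = 2.48e-06), as was Foxc2, a factor of lymphatic valves, at -4.04 ± 0.18 in thymic against -3.03 ± 0.39 in thyroid cells (limma adjusted p = 0.00491).

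**Figure D4:**
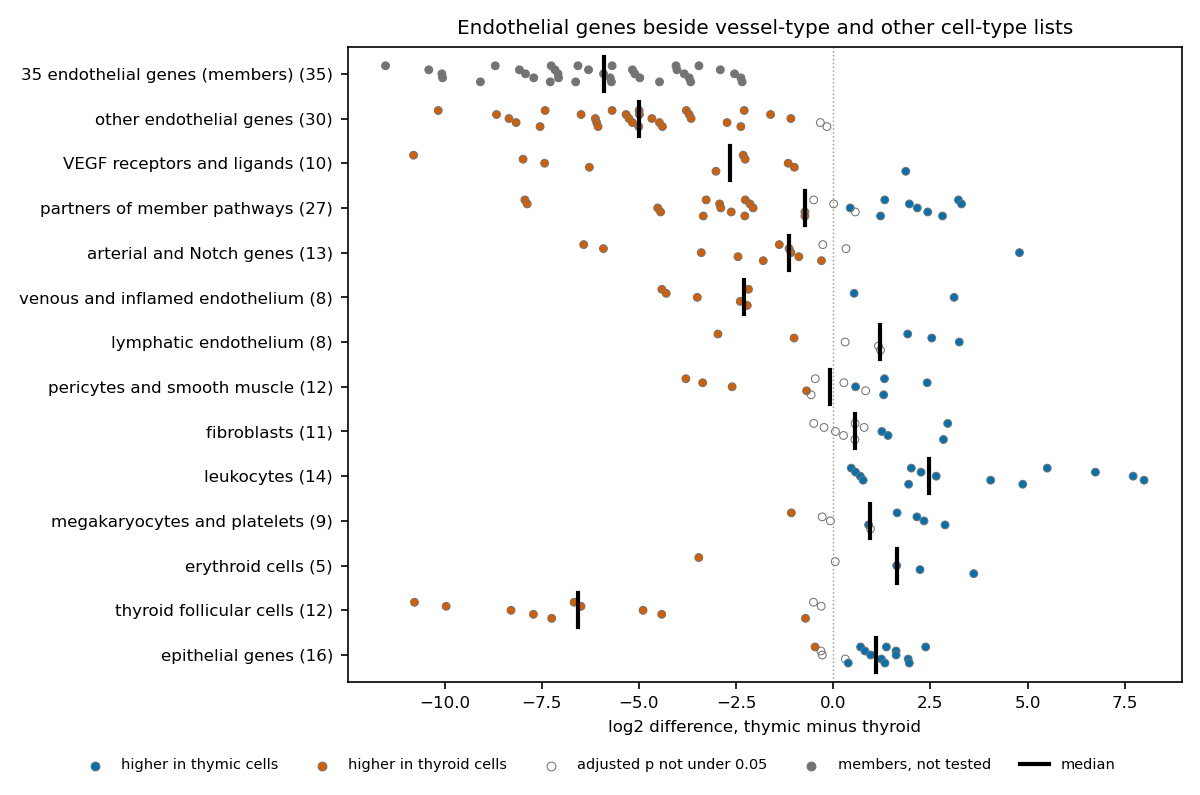
Difference (thymic minus thyroid, log2) of each gene by list, with the number of genes tested in brackets. Filled points passed limma at an adjusted p under 0.05 (blue, higher in thymic cells; orange, higher in thyroid cells), open points did not, grey points are the 35 endothelial genes, which were not tested, and black bars are medians. The medians are -5.91 for the 35 genes, -5.00 for other endothelial genes, -6.58 for follicular cell genes, -0.10 for pericyte genes and 2.45 for leukocyte genes.

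Cells that share genes with endothelium or surround it were followed by their own markers. Of 12 pericyte and smooth muscle genes, 4 (33.3%) were called towards the thymic cells and 4 (33.3%) towards the thyroid cells, shares near the 39.3% and 30.5% of all genes (median -0.10). With median centring the counts were 1 and 6. Their summed level, on the same log2 scale, ran from 5.61 to 6.10 on the thymic and from 5.07 to 5.64 on the thyroid arrays. Pdgfrb, the defining receptor gene of pericytes, was at 0.14 ± 0.21 in thymic against -0.14 ± 0.58 in thyroid cells (limma adjusted p = 0.434), with thyroid replicate 3 at -0.80 and below the other thyroid arrays. The channel subunit genes Kcnj8 (difference -3.79, limma adjusted p = 2.91e-05) and Abcc9 (-3.36, limma adjusted p = 3.15e-05) were higher in thyroid cells, while the muscle genes Des (2.42, limma adjusted p = 2.97e-04) and Cnn1 (1.32, limma adjusted p = 0.0181) were higher in thymic cells. The call of Cnn1 ended on slide 1 alone (difference 0.63, limma adjusted p = 0.0551). Of 11 fibroblast genes, 4 (36.4%, near the 39.3% of all genes) were called towards the thymic cells, 2 with median centring, and 0 towards the thyroid cells, against 30.5% of all genes. The 4 included Fap (2.94, limma adjusted p = 7.89e-05) and Fbln1 (2.83, limma adjusted p = 7.76e-04). Without thyroid replicate 3, 2 fibroblast genes were higher in thyroid cells. The summed level of the fibroblast genes ran from 4.77 to 5.53 on the thymic and from 3.22 to 4.77 on the thyroid arrays. Within the thymic group 9 of 11 were highest on replicate 3, where 36.0% of all genes were. Of the 35 endothelial genes 18, Cd34 among them, were highest there too, as were 9 of 14 leukocyte genes.

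Most blood cell markers did not share the direction of the 35 genes. Of 14 leukocyte genes, 14 (100%, against 39.3% of all genes) were higher in thymic cells and 0 (against 30.5%) in thyroid cells. Higher in thymic cells were 12 with normexp, and 10 with median centring, quantile normalization or the deposited table. In each of these settings 0 were higher in thyroid cells. The 14 genes had a summed level of 7.64 to 7.88 on the thymic and 1.26 to 1.93 on the thyroid arrays. Ptprc, which encodes CD45, was at -0.86 ± 0.46 in thymic against -4.91 ± 0.17 in thyroid cells (limma adjusted p = 1.04e-05), a difference of 4.05, or 2.28 with normexp. Cd52 was 255-fold (limma adjusted p = 3.53e-07) and Laptm5 210.2-fold (limma adjusted p = 3.93e-07) higher, and Laptm5 82.9-fold with normexp. Megakaryocytes and platelets also express Vwf, Selp and Pecam1. Of 9 other genes known from them, 5 (55.6%, against 39.3% of all genes) were higher in thymic cells and 1 (11.1%, against 30.5%) in thyroid cells. The platelet integrin gene Itga2b was at -4.81 ± 0.33 in thymic against -4.53 ± 0.20 in thyroid cells (limma adjusted p = 0.239), and its difference of -0.29 became -1.37 with quantile normalization (limma adjusted p = 0.00156). Gp9 (2.88, limma adjusted p = 6.10e-04) and the platelet factor gene Pf4 (2.33, limma adjusted p = 0.00125) were higher in thymic cells, and Itgb3, an integrin gene of platelets and endothelium, was higher in thyroid cells (-1.08, limma adjusted p = 3.18e-04). Of 5 erythroid genes tested, 3 (60.0%, against 39.3% of all genes) were higher in thymic cells and 1 (20.0%, against 30.5%) in thyroid cells. Their summed level went the other way, from 1.60 to 2.20 on the thymic and from 4.60 to 4.88 on the thyroid arrays. The globin gene Hba-a1 was higher in thyroid cells at 1.28 ± 0.48 in thymic against 4.74 ± 0.16 in thyroid cells (limma adjusted p = 2.48e-05). Epb42 had a difference of 3.61 (limma adjusted p = 9.28e-04), or 1.45 with normexp. The erythroid factor gene Klf1, above background on no thyroid array, had a thymic signal at least 2.09-fold higher (limma adjusted p = 3.33e-05). Under normexp its difference was 0.28 (limma adjusted p = 0.137). Klf1 passed the filter through the thymic arrays only, so its p-value on the processed signal is no support for the direction.

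The thyroid label and the epithelial sort were checked by genes that define them, and the thymic medulla by a single gene outside the lists, added after seeing the data. Aire, which drives the expression of tissue antigens in medullary epithelium, was at 6.18, 5.95 and 6.25 in thymic cells, against -5.43, -6.20 and -6.23 in thyroid cells. Other medullary markers were not checked here. Of 12 follicular cell genes, 0 were higher in thymic cells (39.3% of all genes) and 10 (83.3%, against 30.5%) in thyroid cells (median -6.58). Their summed level was 3.79 to 3.94 on the thymic and 9.24 to 9.64 on the thyroid arrays. Tg, which encodes thyroglobulin, was at -1.74 ± 0.09 in thymic against 9.04 ± 0.24 in thyroid cells (limma adjusted p = 2.04e-07). General epithelial genes were above background on all 6 arrays in 16 of 16, and 12 were higher in thymic cells and 1 in thyroid cells (median 1.1). Epcam, the sorted marker, was at 2.96 ± 0.15 in thymic against 1.72 ± 0.34 in thyroid cells (limma adjusted p = 0.00110). The keratin gene Krt8 was higher in thymic cells (1.95, limma adjusted p = 1.75e-05). The gene called higher in thyroid cells was Rab25 (-0.47, limma adjusted p = 0.0486), whose call ended on slide 1 alone (-0.17, limma adjusted p = 0.393) and without thyroid replicate 3 (-0.33, limma adjusted p = 0.115). The thyroid arrays carried follicular, epithelial and endothelial transcripts side by side, and the share of endothelial cells in the thyroid sort was not measured.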

How the data were processed

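Per the file headers, the authors deposited scanner output (Agilent Feature Extraction 10.5.1.1) that gives each spot a background-subtracted processed intensity and places probes on mm8. The deposited value table is a ratio: each column equals the processed signal over its array's median. RNA was extracted with Trizol, per the labels' protocols.

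Control and outlier spots were left out and the spots of a probe averaged (41174 probes). Levels are log2 of the processed signal minus the array's 75th percentile. Testing required a mark of well above background, on at least 50% of a probe's spots, in all 3 arrays of either group, and the tested probe of highest mean level stood for its gene. Names came from a GRCm38.p6 table, by accession (24375 probes), symbol (6301) or older symbol (2426), or stayed as in the files (8072). The 65 probes that the files place on another chromosome than their gene were left out.

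Group differences were fitted in limma 3.58.1 (R 4.3.3; lmFit, eBayes, two-sided, no covariate), with Benjamini-Hochberg adjustment over 21365 genes, and the fit was tested on simulated data. The p-values set each mean difference against the spread between these pooled samples, not between single animals, with variances moderated by eBayes. Promoter windows of 250 bases came from RefSeq (GRCm38.p6). The 35 genes and all 13 lists were chosen with earlier results of these data known. Named from each list were up to 2 genes per direction with the largest difference among those past an adjusted p of 0.05 whose groups do not overlap, and Ptprc, Epcam, Kdr, Tg, Pdgfrb, Prox1 and Itga2b whatever their values. Of the genes this rule takes, 2 are not reported here. The alternatives comprised normexp (offset 50), median centring, quantile normalization, the deposited table, other filters, the median over probes, slide and replicate blocks, and leaving out arrays. Leaving out both replicates 3 and keeping the 65 probes were added after seeing the data. Plots used matplotlib 3.10.9 (Python 3.11.15).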

Additional observations from a re-analysis of the deposited data

How the results depend on the processing

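The results were recomputed under 18 other settings, where each gave a value; Adgrl4, Clec14a and Sele have none under the filter for background on all 6 arrays. The direction of the 35 endothelial genes was kept in the values computed, except for Ramp2, which stood at 0.54 with the 4 probes of chromosome 19 kept under its name. Since the genes were chosen for this direction on these same arrays, its being kept describes the choice. The median difference of the 35 genes was -5.61 with normexp, -6.45 with median centring, -6.44 with the deposited table and -6.30 with the median over probes. It was -6.09 with the slide as a block or on slide 1 alone, and -6.04 to -5.82 with an array left out. Slide 2 held thyroid arrays only, so both slide settings give the same estimate, with thyroid replicate 1 as the only thyroid array. Of all genes, median centring gave 6098 genes higher in thymic cells and 11032 in thyroid cells, and the deposited values gave 6123 and 10957, against 8397 and 6511 of 21365 in the main comparison. The 6-array filter tested fewer genes, 17055, and gave 5027 and 6400. Median centring put the median difference of all genes at -0.43. Same-numbered replicates of the groups did not deviate together (r = 0.006, -0.067 and -0.054), so the numbers were not taken as pairs. With the replicate block, 8050 genes passed towards the thymic cells and 5993 towards the thyroid cells (main 8397 and 6511), and of the 1 epithelial gene called higher in thyroid cells 0 passed.

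Small list counts depended on the setting, and the cause was not tested. Megakaryocyte genes higher in thymic cells numbered 2 with normexp and with the 6-array filter, and 3 with quantile normalization or the slide block (main 5), and those higher in thyroid cells 3 with median centring, quantile normalization and the deposited table (main 1). With median centring and the deposited table, 1 venous gene (main 2), 1 pericyte gene (main 4) and 2 fibroblast genes (main 4) were higher in thymic cells, and 2 erythroid genes (main 1) and 3 epithelial genes (main 1) in thyroid cells. With the slide block, 2 pericyte and 2 fibroblast genes were higher in thymic cells. Epithelial genes higher in thyroid cells numbered 2 with normexp and with the 6-array filter, and 0 with quantile normalization, no filter, the slide block, slide 1 alone and without both replicates 3. Arterial genes higher in thymic cells numbered 2 with quantile normalization and the median over probes (main 1), erythroid genes 1 with the 6-array filter (main 3), and fibroblast genes higher in thyroid cells 2 without both replicates 3 (main 0).

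With an array left out, 5594 to 6385 genes were higher in thyroid cells, and the counts ran from 28 to 29 (other endothelial genes), 0 to 3 (epithelial genes) and 0 to 2 (fibroblast genes) in thyroid cells and from 1 to 2 (arterial genes) in thymic cells. The endothelial median deviation ran from 0.05 to 0.26 on thyroid replicate 1, from -0.051 to 0.21 on replicate 2 and from -0.26 to -0.21 on replicate 3. That of replicate 2 was -0.051 without replicate 3. The difference of Prox1 was -0.23 with median centring, -0.28 with quantile normalization, -0.22 with the deposited table and -0.020 with the slide block and on slide 1. That of Pdgfrb was -0.26, -0.25 with the deposited table, -0.10 with the slide block and on slide 1, -0.061 without thyroid replicate 3 (-0.061 to 0.45 with an array left out) and -0.14 without both replicates 3. Signals not above background limit what can be said of Adgrl4, Clec14a and Sele in thymic cells.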
